A study of Saccharomyces cerevisiae with 2 samples.

Results

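Hexose transporters carry glucose, fructose and mannose across the plasma membrane of budding yeast (Saccharomyces cerevisiae). The HXT genes encode these transporters, and Snf3 and Rgt2 are membrane proteins of the same family that act as glucose sensors. A sensor that binds glucose triggers the breakdown of the corepressors Mth1 and Std1, which releases the repressor Rgt1 from HXT promoters. A separate pathway through the kinase Snf1 and the repressor Mig1 keeps the genes of the higher-affinity transporters low when glucose is abundant.

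The genes described are HXT1, HXT2, HXT3, HXT4, HXT5, HXT8, HXT10, HXT13, SNF3 and RGT2. They were chosen by name, and a gene was measured where a probe set was annotated to it alone. This held for 9 of the 10 genes, each with 1 probe set, out of 5656 genes measured. HXT13 has no probe set of its own and is given with its near-identical copies further on.

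RNA came from yeast whose histone H3 carried arginine in place of lysines 4, 36 and 79. In galactose a wild-type H3 gene was active beside the mutant gene, and a shift to glucose repressed it. Cultures grew in selective medium with galactose and then for 12 h in selective medium with glucose, and were harvested at an optical density of 0.5 to 0.7. The labels give neither the glucose concentration nor the rest of the genotype. Both samples, replicates 1 and 2, belong to this group, so no comparison with wild type or with another time was made here, and every value describes the mutant at 12 h.

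Each culture was measured on an Affymetrix yeast array, a set of short DNA probes for each gene. The array signal, in arbitrary units on a linear scale, had a median over all genes of 41.98 on replicate 1 and 41.4 on replicate 2. Control probe sets for the opposite strand of control genes have no matching RNA. The highest of these 9 controls read 3.39 on replicate 1 and 4.07 on replicate 2, and served as the control level. Probe sets differ in how strongly they bind their RNA, so the signals of different genes are not read as relative RNA amounts. In RNA from a whole culture, fewer cells that express a gene and less RNA per cell cannot be told apart. Each error is the SD of both arrays (n = 2), a number that limits how precise it can be. The design text speaks of replicate cultures but not of separate clones.

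All 9 measured genes read above the control level on both arrays, as did 96.3% of all genes. The brightest were HXT3, HXT2 and HXT1, and HXT10, SNF3 and HXT8 were the dimmest. The signal of each gene differed by less than 1.2-fold between the 2 cultures. HXT1 and HXT2 were higher on replicate 2, and the other 7 were lower on it, of which HXT4, HXT5, HXT10 and RGT2 were higher under at least 1 of the other scalings or corrections tried.

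**Figure D1:**
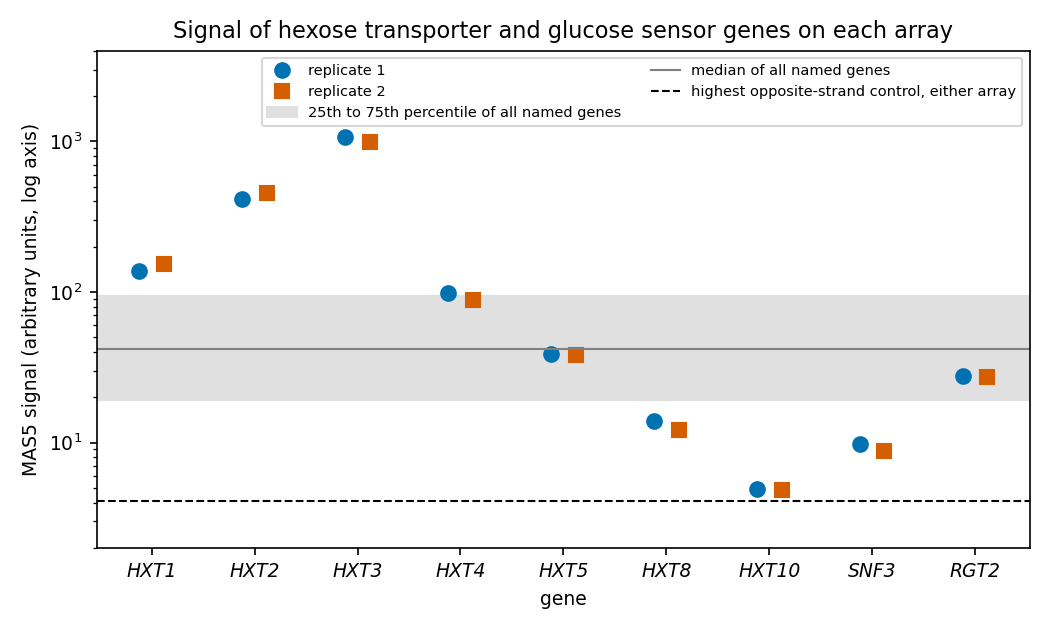
Signal of each gene (horizontal axis) on replicate 1 (circles) and replicate 2 (squares), on a log axis in arbitrary units. The band runs from the 25th to the 75th percentile of all genes, with their median as a line, and the dashed line is the highest opposite-strand control on either array, 4.07. HXT1, HXT2 and HXT3 lie above the band, as does HXT4 on replicate 1 only, and HXT8, HXT10 and SNF3 lie below it.

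HXT1 and HXT3 encode low-affinity transporters that carry most of the uptake when glucose is plentiful. HXT3 read 1072 on replicate 1 and 990.3 on replicate 2, a mean of 1031 ± 57.6 (SD, n = 2). It was brighter than 98.9% of all genes on replicate 1 and 98.8% on replicate 2, and read 316 and 243 times the control level. HXT1, which is induced at high glucose, read 138 on replicate 1 and 153 on replicate 2, a mean of 145 ± 10.6. That placed it above 81.8% and 83.7% of all genes. The 2 low-affinity genes differed in opposite directions between the cultures, HXT1 with a log2 ratio of replicate 2 to replicate 1 of 0.15 and HXT3 with -0.11.

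HXT2 and HXT4 encode transporters of higher affinity, which are induced by low glucose and repressed when it is abundant. HXT2 read 413 on replicate 1 and 455 on replicate 2, a mean of 434 ± 30.2 (SD, n = 2), above 94.1% and 95.1% of all genes. HXT4 read 98.7 and 88.6, a mean of 93.6 ± 7.17, above 75.7% and 73.5% of all genes. This pair also differed in opposite directions, with log2 ratios of 0.14 for HXT2 and -0.16 for HXT4, the latter 0.18 after a correction by distant probe sets that was chosen after seeing the data.

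HXT5 encodes a transporter whose expression is tied to slow growth rather than to glucose. It read 38.7 on replicate 1 and 37.9 on replicate 2, a mean of 38.3 ± 0.598 (SD, n = 2), close to the median of all genes. Its SD was 1.56% of its mean. HXT8 and HXT10 belong to the transporters that are little expressed in growing cells and carry little of the glucose flux. HXT8 read 13.9 and 12.2, a mean of 13.0 ± 1.26, which is 4.11 times the control level on replicate 1 and 2.98 times on replicate 2. HXT10 read 4.92 and 4.88, a mean of 4.90 ± 0.0330, less than 1.5 times the control level on either array. The HXT10 signal was thus close to the highest of the opposite-strand controls. The highest of 4 mouse control probe sets read lower, 0.511 on replicate 1 and 1.30 on replicate 2, and HXT10 lay above it.

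The sensors gave low to moderate signal. SNF3, which encodes the sensor of low glucose, read 9.84 on replicate 1 and 8.76 on replicate 2, a mean of 9.30 ± 0.764 (SD, n = 2). These values were 2.91 and 2.15 times the control level and lay above 10.7% and 9.76% of all genes. RGT2, which encodes the sensor of high glucose, read 27.6 and 27.5, a mean of 27.5 ± 0.108, above 34.9% and 35.8% of all genes. Both sensor genes lay below the median of all genes on both arrays.

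Over the 9 genes the median signal was 38.3 ± 0.598 (SD, n = 2), against 41.7 ± 0.383 for all genes. HXT1, HXT2, HXT3 and HXT4 lay above the median of all genes, and the other 5 lay below it. The brightest gene of the array read 1924 on replicate 1 and 1919 on replicate 2.

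The arrays were deposited with values in whole steps, 0.0639 on replicate 1 and 0.0617 on replicate 2. The HXT10 signals differed by 0.0467 between the arrays, less than 1 such step. Its small SD is therefore at the limit of what the values resolve.

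The next question is how closely the 2 cultures matched in these genes. The log2 ratio of replicate 2 to replicate 1 ran from -0.20 for HXT8 to 0.15 for HXT1, so no gene differed by more than 1.15-fold. Ratios were counted among genes at or above the 25th percentile of mean signal, 19.2, a limit that 4242 genes (75%) passed. HXT1, HXT2, HXT3, HXT4, HXT5 and RGT2 passed it, and HXT8, HXT10 and SNF3 did not. None of the 6 that passed differed by 2-fold, a size reached by 0.519% of all genes above the limit, or by 1.5-fold, reached by 1.51%. Without the limit, none of the 9 differed by 2-fold, where 1.13% of all genes did. All 6 lay within 1.2-fold, as did 89.6% of all genes above the limit, so the close match is not particular to them.

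Among genes above the limit, the central 95% of log2 ratios ran from -0.43 to 0.31, and all 6 transporter and sensor genes lay inside it. The ratio of HXT1 was higher than that of 88.9% of these genes and the ratio of HXT2 higher than that of 88.0%. HXT4 stood at the other side, above 18.1%. The genes under the limit scattered more, with a central 95% from -0.84 to 0.65, and the ratios of HXT8 (-0.20), SNF3 (-0.17) and HXT10 (-0.014) lay inside that range.

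Of the 9 genes, 7 were lower on replicate 2, where 58.3% of all genes were lower. Of the 6 above the limit, 4 were lower, where 57.6% of all genes above it were. Their median log2 ratio was -0.020, against -0.023 for all genes above the limit, and it was above 0 under 5 of 8 alternatives. With 1 array for each culture and a single group, no test of these differences was possible and no p-value is given.

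**Figure D2:**
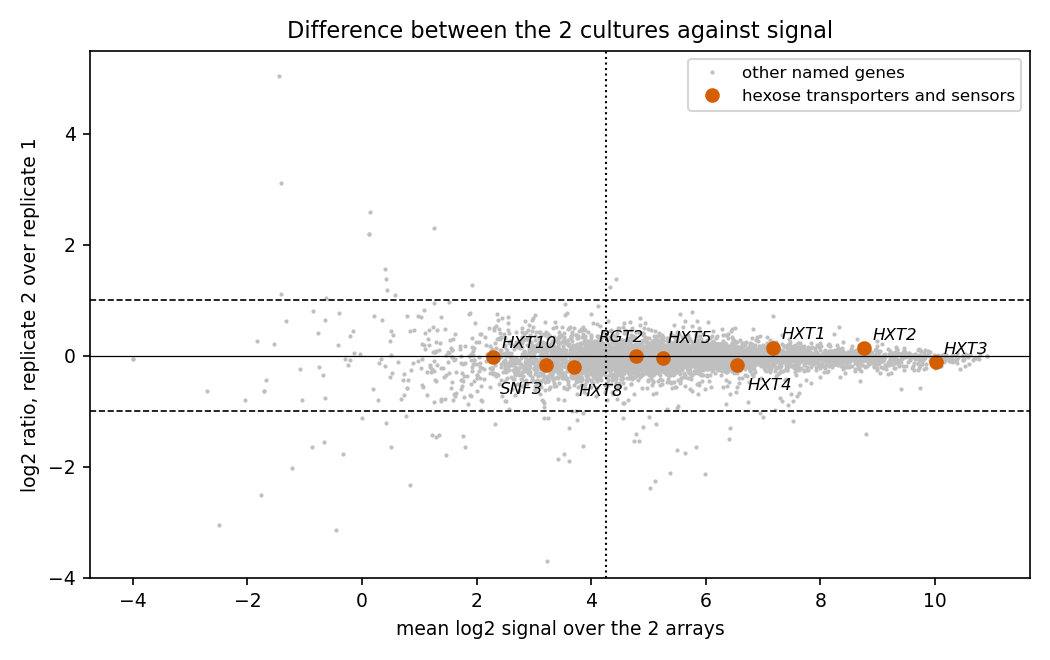
Log2 ratio of replicate 2 to replicate 1 (vertical axis) against the mean log2 signal of both arrays (horizontal axis) for each of 5656 genes. Grey points are other genes and large points the 9 transporter and sensor genes; dashed lines mark 2-fold and the dotted line the limit of 19.2 in signal. The large points lie between -0.20 and 0.15, and none lies at the dimmest end of the signal range.

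HXT4, HXT1 and HXT5 stand next to each other on chromosome VIII, with no other measured gene between them. In this row HXT1 was higher on replicate 2 (log2 ratio 0.15) while HXT4 (-0.16) and HXT5 (-0.032) were lower. Among the same named genes, HXT3 stands next to HXT6 on chromosome IV, which also holds SNF3 and RGT2. HXT2 lies on chromosome XIII, HXT8 on X and HXT10 on VI. The nearest measured genes on either side of the 9, leaving out the 9 themselves, are 14 genes, of which 5 read above the median of all genes.

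To see whether a ratio was shared by probe sets of nearby number, each gene was set beside the 20 probe sets within 10 numbers of its own. Around HXT2 these ran from -1.12 to 0.29 with a median of -0.097, and HXT2 (0.14) was higher than all but 3 of them. Around HXT1 the median was -0.030, and 2 of 20 were higher than HXT1. These 20 include the probe sets of HXT4 and HXT5, and no signal limit was applied to any of the nearby probe sets. Around SNF3 they ran from -2.18 to 0.62 with a median of -0.014, and 15 were higher than SNF3. Around HXT3 (-0.11) the median was -0.081, and 13 were higher. The 20 around HXT3 include the probe sets of HXT6 and HXT7. Probe set numbers can follow gene order on the chromosome, as for HXT4, HXT1 and HXT5, at 4428, 4430 and 4432. Probe sets of near number thus include chromosomal neighbours of a gene, and their places on the array are not known here. The part of chromosome or array position in these ratios was not tested.

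**Figure D3:**
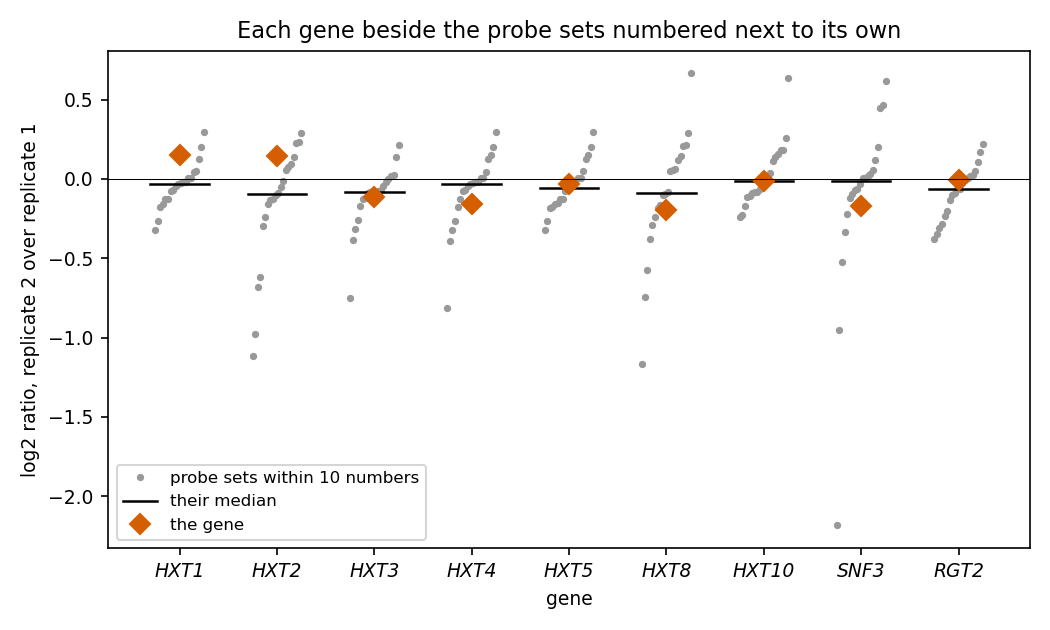
Log2 ratio of replicate 2 to replicate 1 (vertical axis) for each of the 9 genes (diamonds) and for the 20 probe sets within 10 numbers of its own (grey points, in order of their ratio), with the median of these as a bar. Every diamond lies inside the range of its grey points, which reaches lowest around SNF3, at -2.18.

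Other transporters of the family were measured less directly. HXT6 and HXT7, near-identical genes of high-affinity transporters, each have a probe set of the kind that also matches similar sequences. The HXT6 probe set read 903 and 849, a mean of 876 ± 38.4 (SD, n = 2), and the HXT7 probe set 682 and 644, a mean of 663 ± 27.2. Both were lower on replicate 2, with log2 ratios of -0.090 and -0.084, and how the signal divides between these copies is uncertain.

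The probe set that covers HXT13 is annotated to HXT13, HXT15, HXT16 and HXT17 together, a group of transporters known to carry polyols. It read 43.5 on replicate 1 and 42.7 on replicate 2, and cannot be assigned to HXT13. The 2 probe sets annotated to both HXT9 and HXT11 disagreed, at 24.2 and 25.1 for one and 4.41 and 5.43 for the other. HXT14 read 1.60 and 2.59, below the control level on both arrays, so its log2 ratio of 0.70 says little. GAL2, which encodes the galactose permease of the same family, read 9.59 and 10.1, a mean of 9.82 ± 0.333, or 2.83 and 2.47 times the control level.

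Sugar porters outside the HXT genes had a median signal of 44.3 ± 0.342 (SD, n = 2) over the 8 of 9 with a value, and all 8 read above the control level. The myo-inositol transporter gene ITR1 was the brightest, at 495 ± 27.3, and the glycerol transporter gene STL1 the dimmest, at 7.39 ± 0.761. Their log2 ratios ran from -0.21 for STL1 to 0.17 for the maltose transporter gene MAL31. The probe set of MAL31 has a letter suffix in its name, so its signal may include similar sequences. None of the 6 above the limit differed by 2-fold.

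For the pathway from the sensors to the HXT promoters, each of the 12 genes listed had a value. Their median signal was 74.6 ± 4.03 (SD, n = 2), and 11 of 12 lay above the median of all genes. The repressor gene RGT1 read 78.1 on replicate 1 and 78.7 on replicate 2. Its corepressor genes differed in opposite directions, with STD1 at 65.5 on replicate 1 and 75.2 on replicate 2 and MTH1 at 26.5 and 19.0. MTH1 was the dimmest of the list and had its lowest log2 ratio, -0.48, the only one of the 12 outside the central 95%, where 5.04% of all genes above the limit lie by construction. With a pseudocount of 16 it lay inside, at -0.28. MTH1 expression is itself known to be repressed by glucose through Mig1 and Mig2. SKP1, a subunit of the ubiquitin ligase that marks Mth1 and Std1 for breakdown, was the brightest, at 184 ± 2.21, and the ubiquitin-conjugating enzyme gene CDC34 had the highest log2 ratio, 0.27. None of the 12 differed by 2-fold, and their median log2 ratio was 0.0086.

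In the glucose repression pathway, 15 of 15 genes had a value, with a median of 52.5 ± 1.53 (SD, n = 2) and 8 above the median of all genes. The kinase gene SNF1 read 70.8 and 64.6, and the hexokinase gene HXK2 459 and 480. The repressor gene MIG1 read 36.9 on replicate 1 and 31.5 on replicate 2, while its relative MIG2 read 33.3 and 43.1. The log2 ratio of MIG2, 0.37, lay outside the central 95%, and that of MIG1, -0.23, inside it. The related repressor gene MIG3, under the signal limit at 14.9 and 21.5, had the highest ratio of the list, 0.53. HXK1 was the brightest, at 495 ± 41.0. The invertase gene SUC2, which glucose represses, was the dimmest at 5.32 ± 1.28 and had the lowest ratio, -0.50, but its 3 probe sets disagreed, from 0.128 to 50.5 on replicate 1. None of the 13 genes above the limit differed by 2-fold, and their median log2 ratio was -0.082.

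A further glucose signal runs through a G protein that raises cyclic AMP, and its 4 genes had a median signal of 93.4 ± 11.9 (SD, n = 2). The receptor gene GPR1 read 40.0 on replicate 1 and 61.5 on replicate 2, a log2 ratio of 0.62, outside the central 95%. The G protein subunit gene ASC1, also a ribosomal component, was the brightest, at 1284 ± 57.4, and had the lowest ratio, -0.091, and the regulator gene RGS2 was the dimmest, at 10.4 ± 0.807. Genes that act in the removal of transporters from the membrane had a median of 27.3 ± 0.391 over 8 genes. The ubiquitin ligase gene RSP5 read 137 ± 14.5, and its adaptor gene BUL2 had the lowest ratio, -0.33. The adaptor gene CSR2 was the dimmest, at 5.39 ± 0.881, with the highest ratio, 0.34, over 6 probe sets that read from 0.320 to 18.6 on replicate 1. The arrestin-related adaptor gene ROD1 read 22.6 and 28.3, a log2 ratio of 0.32 just outside the central 95%, and 0.20 and inside it with a pseudocount of 16. None of the genes above the limit in these 2 lists differed by 2-fold. Across the lists, 1 gene each of the induction, repression, G protein and turnover lists lay outside the central 95%. These lists hold 12, 13, 3 and 5 genes above the limit. None of the transporter lists had such a gene, but by construction only 5.04% of all genes above the limit lie outside. With so few genes in each list, these counts do not set the lists apart.

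**Figure D4:**
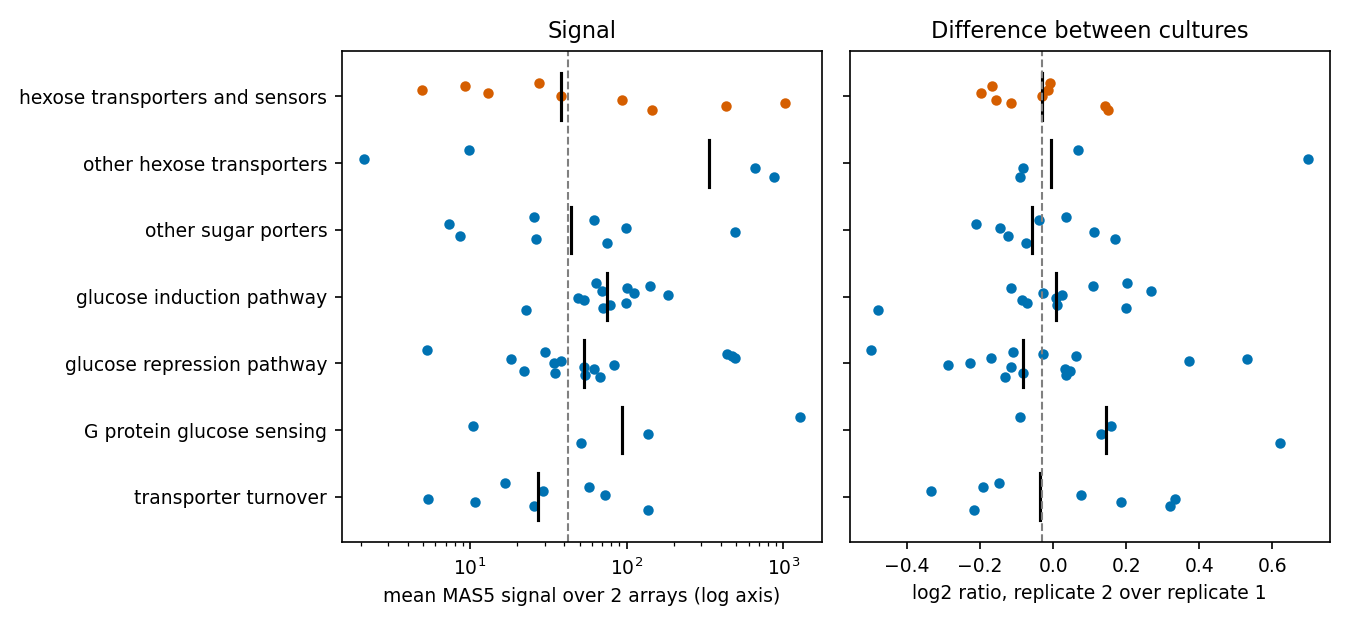
Mean signal over both arrays on a log axis (left) and log2 ratio of replicate 2 to replicate 1 (right) for each gene of the transporter and sensor group and of 6 related lists. Points are genes, bars the median of each list and dashed lines the median of all genes, taken without the signal limit. Median log2 ratios in the text are over genes above the limit, so bars on the right can differ from them. On the right the transporter and sensor genes lie between -0.20 and 0.15.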

How the data were processed

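The deposited intensity values, linear and 1 per probe set for 9335 probe sets, come from MAS5 according to the submitters' processing notes, which as used here name no version or settings. Detection calls were not used. Per the labels' protocols, about 20 ug of total RNA was made into biotin-labelled cRNA. On each array all values were whole multiples of 1 step, within a tolerance of 0.02 steps.

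Gene names come from the platform's annotation and were brought up to date through gene identifiers in the RefSeq gene table (assembly R64). Of the probe sets, 6504 had 1 gene and all matched, 328 had several genes and were not used for single genes, 2443 are unnamed here and 60 are controls. No coordinates are given because the files name no genome build. Gene values are means of the log2 signals of single-gene probe sets, with probe sets at 0 on either array left out. No test between groups was made. The genes and lists were chosen with earlier results of these data known. Named from each list are its brightest and dimmest gene, those with its highest and lowest ratio, and RGT1, MTH1, STD1, MIG1, MIG2, HXK2, SNF1 and GAL2; HXT7, ROD1 and the shared HXT probe sets were chosen with their values in view. The alternatives were quantile normalisation, centring on all genes or on the poly-A controls, loess, a pseudocount of 16, plain probe sets only (names without a letter suffix), either array alone and 2 corrections by nearby or distant probe set numbers added after seeing the data. The 2-fold count was tested on simulated ratios, and quantile normalisation and loess on constructed values. The other steps were not tested in this way. Python 3.11.15, numpy 2.4.6, pandas 2.3.3 and statsmodels 0.14.6 were used.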

Additional observations from a re-analysis of the deposited data

How the results depend on the processing

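No paired analysis was possible because both samples belong to 1 group. The signal of each of the 9 genes moved by less than its SD under quantile normalisation, and plain probe sets only left it as it was, since each has 1 plain probe set. The median signal of the 9 genes ran from 37.9 without replicate 1 to 38.7 without replicate 2. None of the 6 genes above the signal limit passed 2-fold under the 6 other scalings, pseudocounts or probe set choices. Of 72 log2 ratios recomputed for the 9 genes, 71 moved by less than the SD of all genes of like signal and 13 changed sign. The median log2 ratio of the 6 genes was 0.024 with quantile normalisation, 0.0098 centred on all genes, 0.011 with loess, 0.041 with the median of probe sets within 10 numbers taken off and 0.16 with that of probe sets 69 to 71 numbers away taken off. HXT1 (0.13 to 0.29) and HXT2 (0.14 to 0.30) stayed above 0, and HXT3, HXT8 and SNF3 stayed below 0. With the median of probe sets 69 to 71 numbers away taken off, an alternative chosen after seeing the data, the HXT4 ratio was 0.18 rather than -0.16. The cause was not tested. At 3 times the control level, or at the 25th percentile of all genes, 6 of 9 genes lay above, without HXT8, HXT10 and SNF3. By construction, 75% of all genes lay at or above the 25th percentile of mean signal. The share of all genes above 3 times the control level was not counted. With plain probe sets only, the median signal was 5.96 for the other hexose transporters, since HXT6 and HXT7 drop out. It was 68.5 for the other sugar porters, where MAL31 and the sugar porter gene MPH2 drop out. With plain probe sets no ratio could be given for the other hexose transporters above the limit. The ratios of MIG2 and GPR1 lay outside the central 95% under these 6 settings, and those of MTH1 and ROD1 under 5 of them. With the median of probe sets within 10 numbers taken off, added after seeing the data, the ratios were -0.43 for MTH1, 0.23 for ROD1, 0.33 for MIG2 and 0.67 for GPR1, of which MTH1 and ROD1 lay inside the limits of the uncorrected ratios. The HXT14 ratio was 0.079 with a pseudocount of 16, and the SUC2 ratio -1.05 with plain probe sets only. The plain SUC2 probe set read 0.128 on replicate 1 and 0.0617 on replicate 2, far below the control level, so this SUC2 ratio says little. Signal near the control level limits what can be said of HXT10.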
